A study of Rattus norvegicus with 4 samples.

Results

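The genes described here encode the subunits of oxidative phosphorylation that are made from nuclear DNA. They were chosen by name: every probe of the array whose RefSeq accession belonged to a rat gene called Ndufa, Ndufb, Ndufc, Ndufs or Ndufv with a number, Sdha to Sdhd, or with a symbol that began with Uqcr, Cox4 to Cox8 or Atp5. This gave 77 genes with 101 probes, out of 16580 named genes on the array. Of the 77, 32 belonged to complex I, 4 to complex II, 8 to complex III, 17 to complex IV and 16 to complex V. A gene was read from its brightest probe. Signal was well above background, by the scanner software's flag, on all 4 arrays for 72 members, on 3 arrays for Ndufa10, on 1 array each for Ndufs4, Cox6a2 and Cox6c-ps1, and on none for Cox8c. By complex, 30, 4, 8, 14 and 16 members were measured on all 4 arrays.

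Oxidative phosphorylation takes place in the inner membrane of mitochondria. Complexes I and II feed electrons from NADH and succinate into ubiquinone, complex III passes them to cytochrome c, complex IV hands them to oxygen, and complex V, the ATP synthase, uses the proton gradient that results to make ATP. Most subunits are encoded in the nucleus and imported, and the promoters of many of them are known to be bound by NRF1, by ETS family factors of the GABP type and by YY1. Vascular smooth muscle draws on both glycolysis and oxidative phosphorylation, and mitochondria of the vessel wall are known as one source of reactive oxygen species under angiotensin II.

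The samples were vessels of male rats, hybridised singly to 1-colour arrays. WT denotes Wistar rats, the controls, and KO denotes transgenic rats that lack protein kinase C beta through a deletion. Vessels of each genotype were either untreated or exposed for 24 h to angiotensin II (Ang II), the peptide hormone that raises blood pressure. The 4 groups, with 1 array each, were therefore WT control and KO control, without the peptide, and WT Ang II and KO Ang II, with it. The design names 4 male rats per genotype. The sources used here do not give the vessel bed, the age of the rats, how the deletion was made, which cells it reaches or whether rats were pooled.

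With 1 array per group, no single comparison has a replicate check or a p-value. Levels are given as scaled log2 signal, which is log2 of the processed signal minus the 75th percentile of the same array, so that a negative level lies below that percentile. A difference of 2 such levels is a log2 ratio, and 1 on this scale is 2-fold. The scanner software's own error of a processed signal amounted to 0.20 for the log2 ratio of most members. That error was nearly the same for all bright probes, so it serves as a fixed limit and not as a spread measured between spots. It does not cover the animal. Levels are always listed with the WT arrays first, control before Ang II, then the KO arrays in the same order, and they are compared only within a gene, since probes differ in brightness.

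Across the whole array, 40.6% to 43.5% of probes were well above background and no spot was saturated. Prkcb, the gene of the deleted kinase, had processed signals of 14.7 (control) and 17.8 (Ang II) on the WT arrays and was not well above background on either KO array, at 1.93 and 1.88. The sources used here do not say whether its probe lies in the deleted region. All 7 smooth muscle markers were well above background on every array. Of the brown adipocyte markers, Ucp1 and Ppargc1a were not well above background on any array. Cidea and Cox8b, of the same list, were well above background on every array, and Cox8b is itself one of the subunit genes.

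Promoter sequences from RefSeq (GRCr8 assembly, 250 bases before to 50 after the start of each gene) were available for 68 of the 77 members. On both strands of this window, the NRF1 motif, made of GCGC, then AT, then GCGC, was found in 4 members, or 5.88%, against 0.932% of all 27457 promoters. The looser form with AN in place of AT, which includes the first, was found in 12 members (17.6% against 4.71%). The ETS motif CCGGAAG was found in 21 members (30.9% against 9.22%). The YY1 motif AAGATGGCG, whose first letters AAG can overlap the end of the ETS motif, was found in 9 members (13.2% against 1.93%). Each letter string was thus more frequent among members than among all promoters, as a description of the letters and not of binding. By complex, the looser NRF1 form was found in 6 of 30 promoters of complex I, 1 of 4 of complex II, 1 of 6 of complex III, 0 of 13 of complex IV and 4 of 15 of complex V.

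The 5 windows below, each of 60 bases upstream of the start, are shown because their genes lay on the same side of WT in both comparisons of KO with WT by more than 0.32 on the log2 scale, and because they hold an NRF1 or ETS letter string, set in capitals. The first 3 genes were higher in KO and the last 2 were lower. Ndufs1 met the 0.32 limit in both comparisons under 2 of 6 alternative scalings and summaries only. With quantile normalization, Ndufa12 and Ndufs1 did not meet it in both. With normexp background correction followed by quantile normalization, none of the 5 genes met it in both.
Atp5me, chr14:1464759-1464818, plus strand, NRF1: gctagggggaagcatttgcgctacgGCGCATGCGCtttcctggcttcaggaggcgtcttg
Ndufa12, chr7:30658179-30658238, plus strand, looser NRF1 form on the opposite strand: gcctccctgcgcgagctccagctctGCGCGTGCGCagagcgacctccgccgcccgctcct
Ndufb7, chr19:41477292-41477351, minus strand, ETS: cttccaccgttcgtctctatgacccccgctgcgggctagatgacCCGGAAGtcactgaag
Ndufs1, chr9:72073771-72073830, minus strand, ETS on the opposite strand: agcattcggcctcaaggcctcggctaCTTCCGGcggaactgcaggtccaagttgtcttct
Uqcrc2, chr1:184599097-184599156, plus strand, ETS on the opposite strand: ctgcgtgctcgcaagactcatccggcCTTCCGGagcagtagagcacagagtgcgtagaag
The ETS string thus occurred on both sides, in 2 of the 8 genes that were higher and in 2 of the 6 that were lower, and the looser NRF1 form in 2 of the 8 and 1 of the 6.

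The first question was where the subunits as a group stood on the 4 arrays. Median levels of the 72 members, each centred on its own mean over the arrays, were -0.09 and 0.03 on the WT arrays (control, then Ang II) and 0.04 and 0.03 on the KO arrays. Of these 72 members, 35 had their lowest level in WT control (48.6%, against a background of 28.5% of all genes measured on all arrays). The share was 50% in complex I, 0% in complex II, 62.5% in complex III, 64.3% in complex IV and 37.5% in complex V. With quantile normalization the count was 19 of 72, or 26.4%. It was the same with normexp, which here always means normexp background correction followed by quantile normalization. The count thus depends on how the arrays were scaled.

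**Figure D1:**
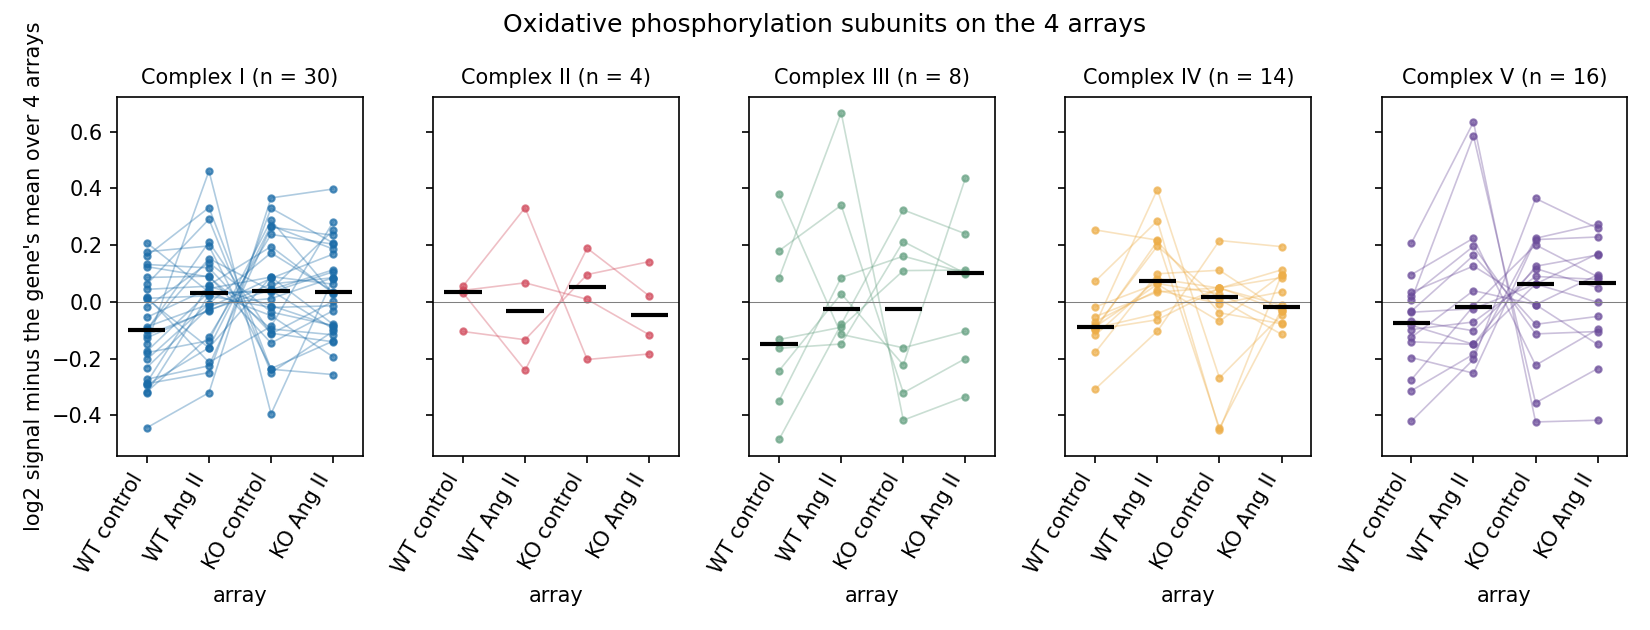
Levels of the 72 subunit genes measured on all 4 arrays, as log2 signal minus each gene's own mean (vertical axis), by array (horizontal axis) and complex. Each thin line is 1 gene and each black bar is the median of the complex on that array. Medians stay between -0.15 and 0.10, while single genes of complexes I, III and V run in opposite directions.

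Ang II in WT vessels was compared first. The median log2 ratio of 76 members was 0.13, against 0.04 for all 9793 genes, and 61 members (80.3%) lay above 0 against a background of 55.2%. The share above 0 was 64.5% with the percentile taken over probes detected on all arrays, 68.4% with medians set equal, 55.3% with quantile normalization and 53.9% with normexp. Of all genes, 48.7%, 50.2%, 49.8% and 50.7% lay above 0 in the same 4 settings. No member was 2-fold higher (background 1.43%). Cox6c-ps1 alone was 2-fold lower (background 0.888%), and only as a bound, because it was well above background in WT control only. More than 0.32 higher were 10 members and more than 0.32 lower were 3 (13.2% and 3.95%, against 19.1% and 13.5% of all genes), which is below the background in both directions. Median log2 ratios by complex were 0.10 for I, 0.00 for II, 0.22 for III, 0.17 for IV and 0.13 for V. With normexp they were 0.01, -0.09, 0.10, 0.08 and -0.02, so that complexes III and IV kept their sign and complex V did not.

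Within complex I, Ndufs8 stood highest for Ang II in WT. It encodes a core subunit with iron-sulphur clusters on the path of electrons to ubiquinone. Its levels were -0.05, 0.56, -0.29 and 0.18, with a log2 ratio for Ang II of 0.61 in WT and 0.48 in KO. Both Ang II arrays were above both control arrays, and Ndufs8 was the single member more than 0.32 higher with Ang II in both genotypes (1.39% of 72, background 1.49%). The lowest member was Ndufa10, an accessory subunit, with -0.43 in WT and, as a bound, -0.48 in KO, where it was well above background in the control only. Its signal was close to background, so the scanner error given for most members does not carry over to it. Ndufv3, a small accessory subunit of the NADH-oxidising part, had levels of 1.0, 1.34, 1.36 and 1.57, and its second probe gave -0.37 for Ang II in WT against 0.35 for the first. Ndufs3, a core subunit of the part that reduces ubiquinone, had levels of 2.91, 3.25, 3.39 and 3.23, low in WT control alone.

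In complex III, Uqcrfs1 stood highest for Ang II in WT. It encodes the Rieske iron-sulphur protein, which moves to carry electrons to cytochrome c1. Its levels were 4.79, 5.38, 4.29 and 4.37, so that the ratio for Ang II was 0.58 in WT and 0.08 in KO. Uqcrb, a subunit at the ubiquinone-binding side, stood lowest with levels of 2.88, 2.38, 2.33 and 2.39. Only the WT control array was high for it, with a ratio of -0.50 in WT and 0.06 in KO, and its second probe gave 0.09 and 0.15.

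In complex IV the highest member for Ang II in WT was Cox5a, a subunit known to bind thyroid hormone metabolites, with levels of 5.19, 5.66, 5.0 and 5.22 and a ratio of 0.48. Its second probe gave -0.19. In complex V, Atp5f1b, the catalytic beta subunit, had levels of 1.55, 2.13, 1.19 and 1.31, with ratios of 0.58 in WT and 0.12 in KO. Atp5pf, coupling factor 6 of the peripheral stalk, was the lowest of complex V at -0.07, within the scanner error. Further probes of the same genes bear on how far such small ratios can be read: of 22 further probes measured on all arrays, 8 had the sign of the brightest probe for Ang II in WT vessels and 10 in KO vessels. For KO against WT the sign was the same for 20 of the 22 without Ang II and for 16 with it.

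Ang II was next compared with control in KO vessels. The median log2 ratio of 73 members was 0.01, against 0.00 for all 9233 genes, and 38 members lay above 0 (52.1%, background 48.9%). No member was 2-fold higher (background 0.184%) or 2-fold lower (background 0.78%). More than 0.32 higher were 5 members and lower was 1 (6.85% and 1.37%, background 9.21% and 10.1%). Medians by complex were -0.02, -0.05, 0.03, 0.01 and 0.01 for I to V.

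The 5 higher members were Uqcrh, Cox7c, Ndufs8, Cox4i2 and Ndufb2. Uqcrh, the hinge protein that helps cytochrome c1 meet cytochrome c, had the largest ratio, 0.66, with levels of 5.76, 6.03, 5.78 and 6.44. Both Ang II arrays were above both controls, and KO Ang II was the highest. Cox7c, a small subunit of cytochrome c oxidase, had levels of -0.66, -0.44, -1.18 and -0.63, where KO control was the low array, and a ratio of 0.55. In complex I, Ndufa10 was the lowest. In complex II, Sdhb was lowest at -0.17 and Sdhd highest at 0.05. In complex III, Uqcrq was lowest at -0.11, in complex IV Cox6b2 at -0.14, and in complex V the range ran from Atp5f1a at -0.14 to Atp5pb at 0.13, all within the scanner error.

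**Figure D2:**
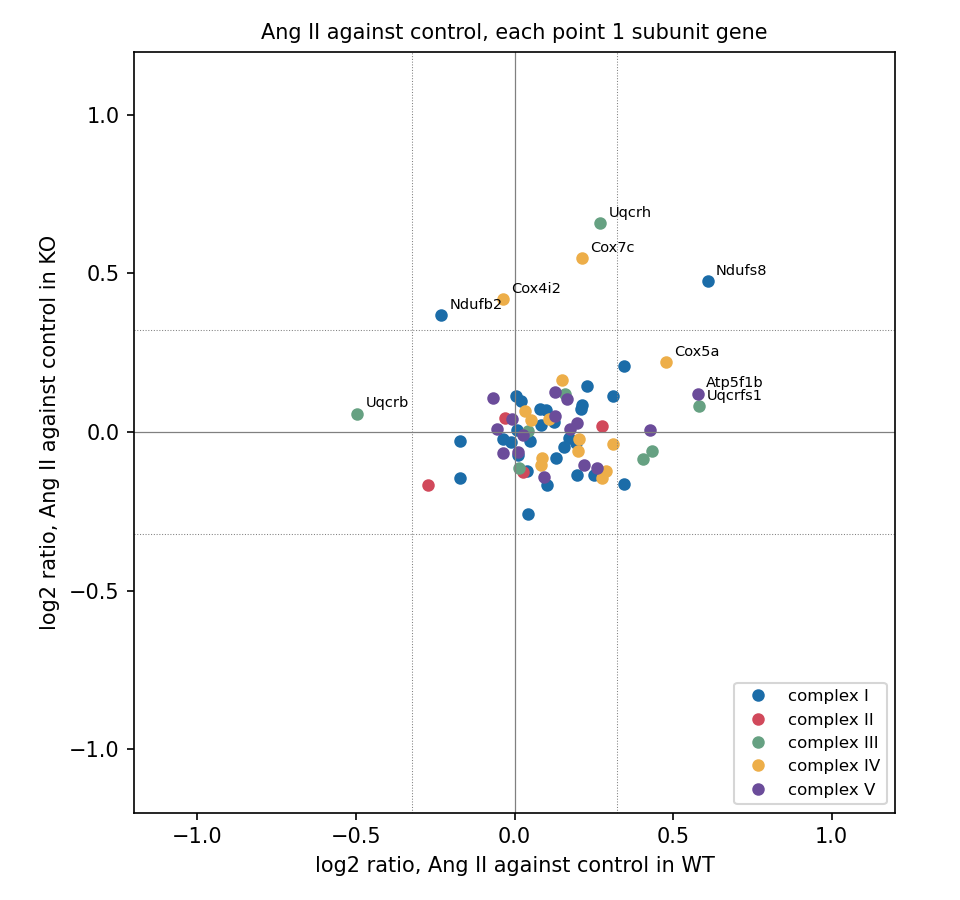
Log2 ratio of Ang II against control in WT (horizontal axis) and in KO (vertical axis) for the 72 subunit genes measured on all 4 arrays, coloured by complex, with dotted lines at 0.32 on either side of 0. Ndufs8 alone lies beyond 0.32 in both, Uqcrfs1 and Atp5f1b lie beyond it in WT only, and Uqcrh, Cox7c, Cox4i2 and Ndufb2 in KO only.

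The Ang II responses of the 2 genotypes share no array. Across the 72 members the signs were the same for 37 (51.4%, background 46.2%), and the correlation across genes was 0.17 (Pearson; Spearman 0.11), given as a description because genes on the same arrays are not independent. The difference of the responses, KO minus WT, had a median of -0.11 over these 72 members against -0.05 for all 8588 genes, and 17 (23.6%) lay above 0 against a background of 44%. That share was 37.5% with either of the other percentile or median scalings, 41.7% with quantile normalization and 43.1% with normexp. Of all genes, 50.2% (percentile over detected probes), 50.8% (medians set equal), 48.9% (quantile) and 48.2% (normexp) lay above 0. No member reached a difference of 2-fold in either direction (backgrounds 1.27% higher and 2.85% lower). Beyond 0.32, 5 members were higher and 13 lower (6.94% and 18.1%, against 16% and 23% of all genes). Ndufb2, an accessory subunit of the membrane arm, had the largest positive difference, 0.60, with levels of 3.12, 2.89, 3.02 and 3.38. The largest negative difference was that of Ndufs3, -0.51. These differences come from single arrays and were not tested.

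KO was then compared with WT without Ang II. The median log2 ratio of 74 members was 0.10, against 0.01 for all 9447 genes, and 46 members lay above 0 (62.2%, background 51.2%). With quantile normalization and with normexp the medians were -0.00171 and -0.00517 and the shares above 0 were 50% and 49.3% (all genes 48.3% and 47.6%), so that no direction of the group holds across scalings. No member was 2-fold higher (background 2.4%), and Cox6c-ps1 alone was 2-fold lower, as a bound (background 3.32%). More than 0.32 higher were 17 members and lower were 10 (23.0% and 13.5%, against 24.9% and 23.3% of all genes). By complex the medians were 0.10, 0.06, 0.13, 0.06 and 0.13 for I to V.

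With Ang II on both sides, the median of KO against WT was -0.01 over 75 members, against -0.04 for all 9570 genes, and it was 0.05 with the percentile taken over detected probes. Above 0 lay 37 members (49.3%, background 46.6%). No member was 2-fold higher (background 1.84%) and 2 were 2-fold lower, Atp5f1c and Uqcrfs1 (2.67%, background 4.42%). More than 0.32 higher were 10 members and lower were 10 (13.3% each, against 21.1% and 27.3%). Medians by complex were -0.02, 0.04, 0.11, -0.13 and 0.08, and that of complex I changed sign with quantile normalization, at 0.01.

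The values of single members against WT differed more than the medians did, and in both directions within the same enzyme. The comparisons without and with Ang II share no array, although the same rats could lie behind both. Of 72 members, 60 had the same sign in both (83.3%, background 71.9%), and the correlation across genes was 0.78 (Spearman 0.79), against 0.60 for all genes (Spearman 0.59). The correlation was 0.68 with normexp (Spearman 0.72), against 0.61 for all genes (Spearman 0.58). Members and all genes were not matched for signal level. All 16 members of complex V and all 4 of complex II kept their sign, as did 26 of 30 in complex I, 7 of 8 in complex III and 7 of 14 in complex IV. With normexp the signs were the same for 75% of members against 69.8% of all genes, and for 11 of 16 in complex V and 10 of 14 in complex IV. When a gene's probes were averaged, the signs were the same for 14 of 16 in complex V. Beyond 0.32 in both, 8 members were higher and 6 lower. These are 11.1% and 8.33% of the members, against 11.8% and 13.8% of all genes. The higher share was thus close to the background, and the side of it depended on scaling. With the percentile over detected probes the shares were 13.9% and 8.33%, against 12.4% and 13.4% of all genes. With normexp they were 6.94% and 5.56%, against 5.80% and 7.24%. The spread of ratios was narrower, with an SD of 0.35 over members in either comparison, against 0.49 and 0.51 over all genes. With normexp the SDs were 0.30 and 0.32 over members, against 0.33 and 0.34 over all genes.

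**Figure D3:**
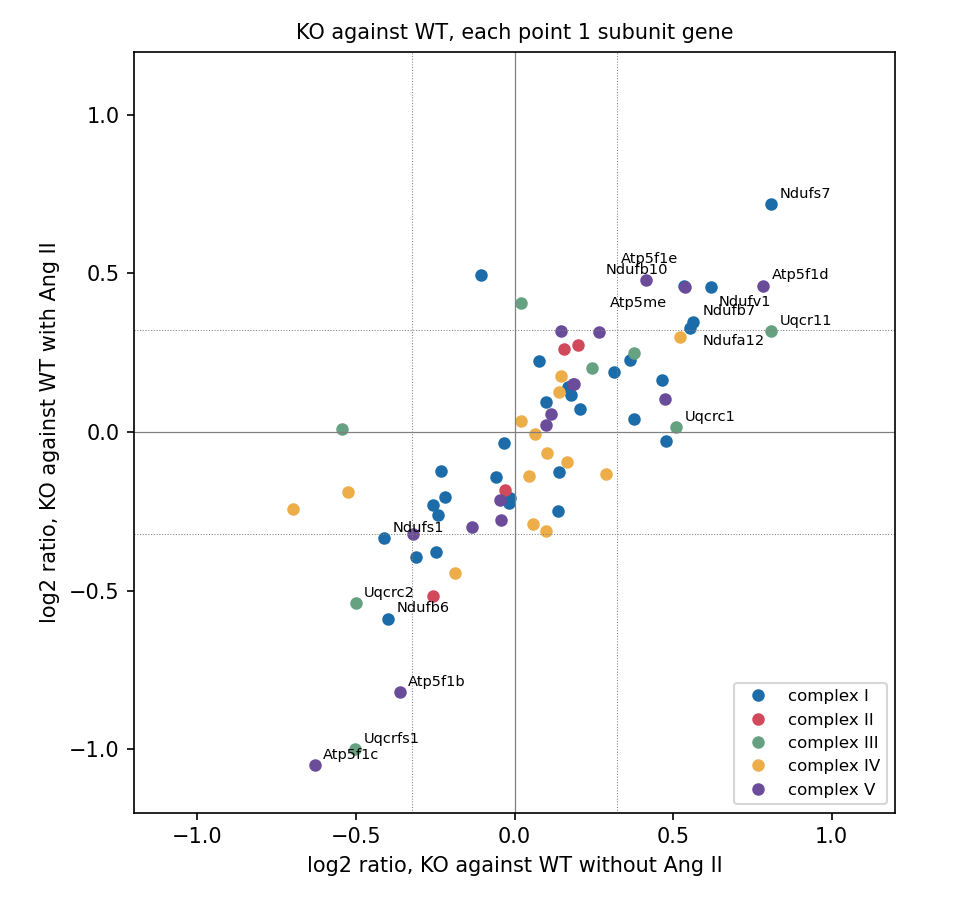
Log2 ratio of KO against WT without Ang II (horizontal axis) and with Ang II (vertical axis) for the 72 subunit genes measured on all 4 arrays, coloured by complex, with dotted lines at 0.32 on either side of 0. The points run along the diagonal, from Atp5f1c and Uqcrfs1 at the lower left to Ndufs7 at the upper right, and 14 genes lie beyond 0.32 in the same direction in both.

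In the catalytic core of complex I, Ndufs7 had the highest ratio of KO against WT. Its protein carries the last iron-sulphur cluster before ubiquinone. Levels were 1.65, 1.77, 2.46 and 2.49, and log2 ratios were 0.81 without and 0.72 with Ang II. Both KO arrays were above both WT arrays by more than the scanner error. Ndufv1, which binds the flavin that takes electrons from NADH, was likewise higher on both KO arrays, with levels of 4.63, 4.67, 5.25 and 5.13. Ndufs1, the large subunit that carries electrons away from Ndufv1, ran the other way, with levels of 2.44, 2.46, 2.03 and 2.12 and ratios of -0.41 and -0.34. Ndufs8 was also lower, at -0.25 and -0.38. Ndufv2, another core subunit, had ratios of -0.02 and -0.22 and Ndufs3 of 0.48 and -0.03.

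Among the accessory subunits of complex I, Ndufb10 and Ndufb7 of the membrane arm and Ndufa12 of the matrix arm were higher on both KO arrays. Ndufb10 had levels of 4.40, 4.45, 4.94 and 4.91. Ndufb7 had levels of 3.71, 3.84, 4.27 and 4.19, and Ndufa12 of 4.09, 4.28, 4.65 and 4.61. Their ratios lay between 0.33 and 0.56. Ndufb6, another accessory subunit of the membrane arm, was lower on both KO arrays, with levels of 3.91, 4.08, 3.51 and 3.49 and ratios of -0.40 and -0.59. Ndufb11 stood close by at -0.31 and -0.39. The other accessory subunits measured on all arrays had ratios between -0.26 and 0.50, and Ndufb2, at -0.10 and 0.50, changed sign. Ndufa4, which was once assigned to complex I and is now counted as a subunit of complex IV, stood at 0.14 and -0.13.

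The 4 subunits of complex II, succinate dehydrogenase, had no ratio beyond 0.52 in either comparison. Sdha, the flavoprotein that oxidises succinate, had levels of 4.01, 4.28, 3.75 and 3.77 and ratios of -0.26 and -0.52, so that KO was lower on both arrays. Sdhb, the iron-sulphur subunit, had levels of 1.99, 1.71, 2.14 and 1.98 and ratios of 0.16 and 0.26. Of the membrane anchors, Sdhc had levels of 4.31, 4.33, 4.28 and 4.15 and Sdhd of 4.88, 4.85, 5.08 and 5.12. Sdhd was thus higher on both KO arrays, by 0.20 and 0.28, while Sdhc stood at -0.03 and -0.18.

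In complex III the ratios of the brightest probes against WT ran from -0.54 (Uqcrb) to 0.81 (Uqcr11) without Ang II. Uqcrfs1 was lower on both KO arrays, with ratios of -0.50 and -1.0, the latter being 2.0-fold lower, and its highest level was in WT Ang II. Uqcrc2, a core protein that helps to hold the complex together, had levels of 3.52, 3.68, 3.02 and 3.14 and ratios of -0.50 and -0.54. Its partner Uqcrc1 differed, with levels of 1.91, 2.35, 2.42 and 2.36, so that WT control alone was low and the ratios were 0.51 and 0.02. Uqcr11, a small subunit, had levels of 6.41, 6.81, 7.22 and 7.13 and ratios of 0.81 and 0.32, but its second probe gave 0.08 and 0.09. Uqcrq, a small subunit by cytochrome b, stood at 0.38 and 0.25 with its brightest probe and at 0.02 and 0.14 with the other, and Uqcr10 at 0.24 and 0.20. For Uqcrb the ratios were -0.54 and 0.01, but its second probe gave -0.02 and 0.04. For Uqcrh the ratios were 0.02 and 0.41.

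**Figure D4:**
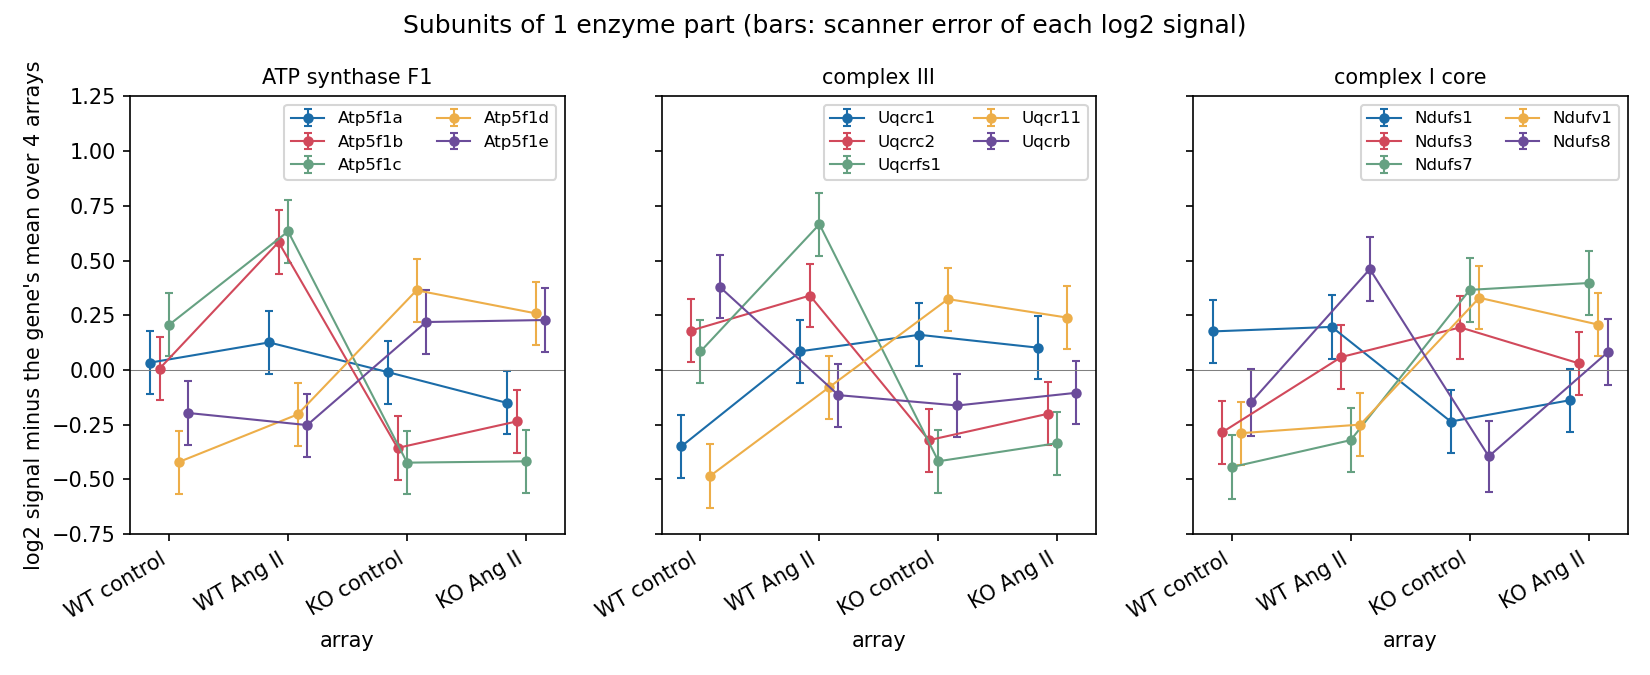
Levels of 5 subunits each of the ATP synthase F1 head, complex III and the complex I core, as log2 signal minus each gene's mean (vertical axis), on the 4 arrays (horizontal axis); bars are the scanner error of each log2 signal. Atp5f1d, Atp5f1e, Uqcr11, Ndufs7 and Ndufv1 lie higher on the KO arrays, while Atp5f1b, Atp5f1c, Uqcrc2, Uqcrfs1 and Ndufs1 lie lower.

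Complex IV has isoform pairs that mark tissues. Cox4i1, the general form of subunit 4, had levels of 7.10, 7.14, 7.25 and 7.31 and differed from WT by 0.15 and 0.18. Cox4i2, a form known from lung and from cells that sense oxygen, had levels of 4.80, 4.77, 4.11 and 4.52. KO control was its low array, and its ratio of -0.70 without Ang II was the lowest of complex IV among genes measured on both arrays, against -0.24 with Ang II. Of the muscle forms, Cox6a2 was well above background in WT Ang II only, at -2.38, whereas the general form Cox6a1 was measured on all arrays at 8.22, 8.27, 8.36 and 8.40. Cox8b, another muscle form, had levels of -2.26, -2.11, -2.24 and -2.07, and the general form Cox8a of 6.87, 7.19, 6.93 and 6.89. The testis form Cox8c was not well above background on any array. Cox6b1 had levels of -1.74, -1.65, -1.69 and -1.79, and Cox6b2, the form known from testis, of 2.31, 2.58, 2.59 and 2.45. The Cox6b1 probe was dim, at 14.7 to 19.9 in processed signal, with scanner errors of 0.29 to 0.35 for its ratios. Probes differ in brightness, so these levels do not show which form of a pair was more abundant. Cox7a2 stood at 6.31, 6.51, 6.48 and 6.42 and Cox7b at 4.83, 4.94, 4.89 and 4.93, and their partners Cox7a1 and Cox7b2 were not analysed here.

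Cox5b, which binds zinc, had the highest ratios of complex IV against WT, 0.52 without and 0.30 with Ang II, on levels of 5.66, 5.86, 6.18 and 6.16. Its second probe gave 0.34 and 0.62. Cox5a had the lowest ratio with Ang II, -0.44, and stood at -0.19 without. Cox7c had ratios of -0.53 and -0.19. Cox7a2l, which joins complexes III and IV into larger assemblies, had levels of 7.01, 7.30, 7.11 and 6.98, with ratios of 0.10 and -0.31. Cox6c stood at 0.10 and -0.07, and its second probe gave -0.22 and 0.07. Cox6c-ps1, listed in the reference as a pseudogene, read 21.5 in processed signal on the WT control array and 9.30, 5.85 and 8.20 on the other arrays, none of which was well above background. It was at least 2.08-fold lower in KO control, and at least 2.45-fold lower in WT Ang II, than in WT control.

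Members of the F1 head of the ATP synthase ran apart. Atp5f1c, the gamma subunit that turns inside the head, had levels of 2.69, 3.11, 2.06 and 2.06 and ratios of -0.63 without and -1.05 with Ang II, the latter being 2.07-fold lower in KO. Atp5f1b, the beta subunit, had ratios of -0.36 and -0.82. Atp5f1d, the delta subunit at the foot of the central stalk, had levels of 4.40, 4.62, 5.18 and 5.08 and ratios of 0.79 and 0.46. Atp5f1e, its small epsilon partner, had levels of 6.24, 6.18, 6.65 and 6.66 and ratios of 0.42 and 0.48, and its second probe gave 0.40 and 0.36. Atp5f1a, the alpha subunit, had levels of 7.41, 7.51, 7.37 and 7.23 and stayed within 0.28 of WT. For Atp5f1b, Atp5f1c, Atp5f1d and Atp5f1e, both KO arrays lay on one side of both WT arrays.

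In the membrane part of the ATP synthase, Atp5me, the e subunit, was higher on both KO arrays, with levels of 7.86, 7.99, 8.39 and 8.44 and ratios of 0.54 and 0.46. The other supernumerary subunits stood at 0.12 and 0.06 (Atp5mf), 0.10 and 0.02 (Atp5mg) and -0.13 and -0.30 (Atp5mk). A second probe of Atp5mg gave 0.14 and -0.10. Further probes of Atp5mk gave -0.14, -0.09 and -0.19 without Ang II, and -0.01, 0.01 and 0.34 with it. The ring of c subunits is encoded by several genes for the same mature protein. Atp5mc1 had levels of 6.37, 6.63, 6.85 and 6.73 and Atp5mc2 of 6.73, 6.93, 6.69 and 6.72, and Atp5mc3 was not analysed here. Their ratios against WT were 0.48 and 0.10 for Atp5mc1 and -0.05 and -0.21 for Atp5mc2. In the peripheral stalk, which holds the head still, Atp5pb stood at -0.32 and -0.32, Atp5pd at 0.19 and 0.15, Atp5pf at 0.15 and 0.32 and Atp5po at 0.18 and 0.15. Atp5if1, the inhibitor that blocks ATP hydrolysis when the gradient fails, had levels of 5.34, 5.33, 5.60 and 5.64 and was higher in KO by 0.27 and 0.32.

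An additive fit of genotype and treatment with limma used all 4 arrays and 9379 genes, of which 73 were members, and left 1 residual degree of freedom. At an adjusted p of 0.05 (Benjamini-Hochberg) it called no member and no other gene for genotype or for Ang II. At an unadjusted p under 0.05 there were 14 members for genotype (9 higher and 5 lower, 19.2%, background 26.3%) and 2 for Ang II (2.74%, background 3.85%). The lowest adjusted p of limma among members was 0.108, for Ndufs7, with a fitted log2 difference of 0.76 (SE 0.15). Atp5f1c followed with -0.84 (SE 0.18, adjusted p of limma 0.115). When limma's prior variance was allowed to follow the signal level, 14 members passed for genotype (19.2%, background 14.4%) and 0 for Ang II (background 0%). The adjusted p of limma then ran from 0.00903 to 0.0471. Of these 14 members, Atp5f1c, Ndufb6, Uqcrc2 and Uqcrfs1 were lower in KO, and Atp5f1d, Atp5f1e, Atp5me, Cox5b, Ndufa12, Ndufb10, Ndufb7, Ndufs7, Ndufv1 and Uqcr11 were higher. The residual of either fit is the difference of the Ang II responses, so that it holds that difference as well as noise. For genotype, either fit took the control and Ang II arrays of a genotype as replicates, although the same rats could lie behind both. The p-values of either fit therefore do not measure the spread between animals.

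Cell type markers moved with genotype beside these values, and their part in the results was not tested. Smooth muscle markers (7 of 7 well above background on all arrays) had a median log2 ratio of KO against WT of 0.61 without and 0.56 with Ang II. Of the 7, 7 lay above 0 without Ang II and 6 with it. Their summed scaled signals were 126, 120, 169 and 187. Fibroblast markers had medians of -0.58 and -1.01 and sums of 624, 657, 389.5 and 358. Of 6 measured, 4 lay below 0 without Ang II and 6 with it. Endothelial markers had medians of -0.58 and -0.12 and macrophage markers of -1.09 and -0.25, the last with 2 bounds among 6 genes. White adipocyte markers had medians of -1.57 and -0.61, which include bounds, and sums of 6.33, 5.42, 4.06 and 5.49. Of 4 measured, 4 lay below 0 without Ang II and 3 with it. Lymphatic endothelial markers had medians of -0.48 and -0.64, which include bounds, and sums of 202, 267, 160 and 144. T cell markers had medians of 0.07 and 0.15, over 2 of 6 genes. Skeletal muscle markers had a median of 0.48 in both comparisons, over 3 of 7 genes, of which 1 was a bound in each. Without Ang II, 1 of the 3 lay below 0. Their sums, 0.823 and 0.796 on the WT arrays, were higher on both KO arrays. Brown adipocyte markers summed to 1.57, 1.92, 1.15 and 1.18, with 2 or 3 of 6 well above background, and cardiac markers to 3.02, 3.34, 3.45 and 3.16, with 2 of 7. Erythroid markers summed to 19.2, 34.1, 20.4 and 29.0, so that both Ang II arrays were higher. In such whole tissue, fewer cells of a type and less RNA per cell cannot be told apart.

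Other genes of the pathway were taken from lists. Assembly factors, which build the complexes but do not stay in them, had medians of 0.02 (Ang II, WT), -0.01 (Ang II, KO) and 0.04 and 0.06 for KO against WT without and with Ang II. Of 41 measured with Ang II, Coa5 was 2-fold higher in KO at 1.04 and Cox16 2-fold lower at -1.14. Regulators of mitochondrial biogenesis had medians of 0.02, 0.04, 0.09 and 0.25 in the same order, over 12 genes with none 2-fold apart. Among them Gabpb1, a subunit of the GABP factor, stood at -0.43 and -0.69 for KO against WT, and Nrf1 at -0.23 and 0.47. The citric acid cycle, which supplies NADH and succinate, had medians of 0.15, 0.01, -0.01 and -0.05 over 13 genes, with none 2-fold apart. Mitochondrial ribosomal proteins had medians of 0.07, -0.05, 0.09 and -0.04.

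Of the electron carriers and subunits that the naming rule leaves out, Etfb, a subunit of the flavoprotein that feeds electrons from fatty acid oxidation, stood at 0.56 and 0.32 for KO against WT. Its partner Etfa was not well above background in KO control and stood at -0.83, as a bound, without Ang II and at -0.91 with it. Cytosolic ribosomal proteins, set beside the members as another group of well expressed genes, had a median of 0.14 for KO against WT without Ang II, with 39 of 42 above 0, and of 0.12 with Ang II.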

How the data were processed

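Members and gene lists were chosen with earlier results of these data known. The processed signal is an intensity, background-subtracted and detrended, per the file headers, and its error and the 0 or 1 flags for background, outliers and saturation are deposited beside it. The authors' deposited table of log2 values differed from the log2 signal by 1 constant per array (99.6% of probes within 0.05), so it served as an alternative only. Agilent Feature Extraction has version 12.1.1.1 per the submitters' processing notes and 10.7.1.1 per the file headers. All 4 arrays lay on 1 slide with 1 scan, per the file headers, so no block could be fitted.

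Outlier spots (301 to 372 per array) were dropped and the log2 values of a probe's spots averaged. The SD of replicate spots, as log2, had medians of 0.0651 to 0.0750, which is technical only, and the number of arrays limits the precision. The array's 75th percentile was subtracted. No pseudocount was used. Accessions were matched without versions to a RefSeq table of GRCr8, which was also the source of the promoters. It named 21107 of 45594 probes. The array design's own build was not used for coordinates. The reference lists pseudogenes named after 39 members, including Atp5f1b, Atp5f1c and Uqcrb, and whether a probe also binds such copies was not tested.

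A gene took its brightest probe among those well above background somewhere. Where only 1 of the arrays compared was well above background, the dim value was replaced by the lowest such value on its array where that was higher, and the ratio is a bound, written as "at least". Single comparisons used a size of 2-fold, and 0.32 as a smaller size. The fit used limma 3.58.1 in R 4.3.3 on genes well above background on 2 or more arrays. It was also run on simulated data with equal noise in every gene and no difference between the Ang II responses. That run does not show how the fit performs on these arrays. Python 3.11.15 was used with numpy 2.4.6, pandas 2.3.3 and matplotlib 3.10.9. Normexp (offset 50) ran on median pixel signals and was followed by quantile normalization. The normexp and quantile alternatives therefore share that step and are not independent of each other. Alternatives were other percentiles, medians set equal, quantile normalization, normexp, means of probes, stricter and no filters, looser membership and the authors' deposited table. Counts of members beyond 0.32 in both treatment states or lowest in WT control were added after seeing the data.

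Named members were, per complex and comparison, the highest and the lowest, members 2-fold apart, isoform pairs, all Sdh genes and Atp5if1. Members beyond 0.32 in both treatment states, and others given to complete an enzyme part, were named after their values were seen. Other genes came from the lists, with Prkcb as a check of the labels. Values of 1 member are not reported here.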

Additional observations from a re-analysis of the deposited data

Results flagged for a closer look

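Ndufb2, an accessory subunit of the membrane arm of complex I, stood apart in the comparison of the Ang II responses of the genotypes. Its log2 ratio for Ang II was -0.23 in WT and 0.37 in KO, each larger than its scanner error of 0.20, and the difference was 0.60. Each genotype had 1 array per treatment, so the difference between the responses was not tested. Ndufb2 had 1 probe.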

How the results depend on the processing

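No paired analysis was possible because each group had 1 array and the groups share only the replicate number 1. For the same reason no array could be left out. With normexp the median for Ang II in WT was 0.0343, and with quantile normalization and normexp the median for KO against WT without Ang II was -0.00171 and -0.00517. The 2-fold lower counts for Ang II in WT and for untreated KO against WT were 0 with normexp or with genes measured on all 4 arrays only, the latter of which leaves out Cox6c-ps1. For KO against WT with Ang II it was 1 with the percentile over detected probes, quantile normalization or normexp, and 0 with medians set equal. Without a filter on dim probes it was 1 for Ang II in KO, and 1 higher and 1 lower for the difference of responses. With 0.32 in place of 2-fold the higher and lower counts were 10 and 3 (Ang II in WT), 5 and 1 (Ang II in KO), 17 and 10 (KO against WT), 10 and 10 (the same with Ang II), and 5 and 13 (difference). Members beyond 0.32 higher in KO in both treatment states numbered 5 with normexp, 4 of them among the 8 named above. Those lower in both numbered 4 with normexp, 3 of them among the 6 named above, and Ndufs1 was no longer among them with the percentile over detected probes, medians set equal, quantile normalization or normexp. Members lowest in WT control 19 with quantile normalization or normexp. The additive fit with an intensity trend called 14 members for genotype. The cause of these changes was not tested. In the other 143 alternative values, counts stayed within 1.5 times of the reported ones and medians moved by less than 0.0750, the median SD of replicate spots on the WT control array, which is technical spread only. Medians close to 0 still changed sign within that margin. The median for KO against WT with Ang II, -0.00563, was above 0 with 6 alternatives, up to 0.0629 with medians set equal, and that for Ang II in KO was -0.0141 with quantile normalization. The median difference of responses shrank to -0.0345 with normexp, and members lowest in WT control numbered 27 with the percentile over detected probes.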
